A study of Mus musculus with 15 samples.

Results

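Fabp3, Fabp4 and Fabp5 are the 3 fatty acid binding protein genes described here, picked by name from a table of 55486 genes, and all 3 passed the filter on low counts that left 14843 genes tested. The libraries were bulk RNA-seq of macrophages sorted from mouse brain tumours driven by PDGFB in an Ink4a/ArfKO background, a glioma model in which the growth factor is made by Nestin-positive progenitor cells. The 4 groups were lipid-laden monocyte-derived macrophages (MDM, 3 libraries), non-lipid-laden MDM (4 libraries), lipid-laden microglia (4 libraries) and non-lipid-laden microglia (4 libraries), all from tumours of that 1 genotype. MDM enter the tumour from blood, whereas microglia are the resident macrophages of the brain, and the 2 origins were set against each other at each lipid load. The sources used here give neither the gate that separated lipid-laden from other cells nor the age or treatment of the mice. Libraries carry the numbers 221, 224, 431 and 718, and a lipid-laden MDM library numbered 431 was not analysed here. The labels do not say that libraries of 1 group came from separate animals, so p-values measure the spread between these libraries.

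Total counts ran between 7798952 and 11419338 a library. Ddx3y, a Y-linked gene, was read only in the libraries numbered 224 and Xist reached 157 to 494 CPM (read counts scaled to library size) in all libraries of the other numbers, so libraries of 1 number shared this trait. The 2 lipid-laden libraries numbered 221 stood apart on the second principal component, which held 11.1% of the variance. The labelled origins were checked against marker genes. Summed levels of 10 MDM markers were 5393 to 6641 CPM in lipid-laden MDM and 6338 to 6836 CPM in MDM, against 1775 to 2559 CPM in lipid-laden microglia and 1210 to 2098 CPM in microglia. Summed levels of 10 microglia markers were 7163 to 10246 CPM in lipid-laden MDM and 2243 to 3871 CPM in MDM, against 6977 to 18029 CPM in lipid-laden microglia and 10310 to 16352 CPM in microglia. RNA of microglia marker genes was therefore present in the lipid-laden MDM libraries at levels that overlapped those of lipid-laden microglia, and dendritic cell markers ran the other way, at 184 to 252 CPM in lipid-laden MDM and 1386 to 3013 CPM in MDM. In bulk libraries, fewer cells of a type and less RNA per cell cannot be told apart.

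Fatty acid binding proteins are small cytosolic carriers that hold a long-chain fatty acid in a barrel of beta strands and pass it between membranes, enzymes, lipid droplets and the nucleus. Fabp4, the adipocyte carrier, and Fabp5, the epidermal carrier, are the forms usually described in macrophages, where mouse studies tie them to lipid loading, eicosanoid output and inflammatory signalling. Fabp3, the heart-type carrier, serves muscle, heart and neurons, and is described less often in macrophages. Fabp4 and Fabp5 can carry ligands to nuclear receptors of the PPAR family, and Fabp4 is itself a PPAR gamma target gene.

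Fabp5 (ENSMUSG00000027533) lies on the plus strand at chr3:10012548-10016607 and Fabp4 (ENSMUSG00000062515) on the minus strand at chr3:10204088-10208576 of the mm10 build, 187 kb apart. Between them lie Pmp2 and Fabp9, and Fabp12 lies beyond Fabp4. Fabp3 (ENSMUSG00000028773) lies elsewhere, on the plus strand at chr4:130308595-130315463. Each gene has 4 coding exons, and the coding part of the third exon is 102 bases in all 3 genes. The start of each coding sequence is shown because the 3 transcripts are alike enough that reads could in principle be shared. Capitals mark the 60 bases that were identical in all 3 genes over the first 120 columns of their alignment.
Fabp3: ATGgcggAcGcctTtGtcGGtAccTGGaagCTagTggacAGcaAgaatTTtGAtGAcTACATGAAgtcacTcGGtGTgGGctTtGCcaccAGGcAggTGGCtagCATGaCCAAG
Fabp4: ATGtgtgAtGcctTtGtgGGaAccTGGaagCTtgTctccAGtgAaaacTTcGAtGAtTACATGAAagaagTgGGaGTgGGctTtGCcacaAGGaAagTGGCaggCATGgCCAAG
Fabp5: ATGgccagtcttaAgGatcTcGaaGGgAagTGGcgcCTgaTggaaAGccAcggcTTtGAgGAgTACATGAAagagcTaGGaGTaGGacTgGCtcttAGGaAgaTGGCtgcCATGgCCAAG
Over the whole coding sequence 178 of 408 alignment columns (43.6%) were identical in all 3 genes. Pairwise identity was 63.9% between Fabp3 and Fabp4, 60.9% between Fabp4 and Fabp5 and 56.0% between Fabp3 and Fabp5. The longest uninterrupted run shared by any pair was 14 bases, between Fabp3 and Fabp4, so no 50-base stretch is common to 2 of them. Processed pseudogenes do share such stretches with Fabp5 (5 of them) and with Fabp3 (Fabp3-ps1), and each of these pseudogenes had at most 7 counts over the 15 libraries. The Fabp3 gene also overlaps Zcchc17, on the opposite strand, by 81 bases. Without a stated strand setting, reads in those bases cannot be assigned to either gene. Zcchc17 averaged 74.7 ± 9.53 CPM in lipid-laden MDM, 82.7 ± 8.03 CPM in MDM, 82.8 ± 3.47 CPM in lipid-laden microglia and 72.1 ± 9.56 CPM in microglia (SD, n = 3, 4, 4 and 4), and it was called in none of the 6 contrasts by edgeR (adjusted p between 0.344 and 0.935).

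Fabp5 had the most counts of the 3 genes in every library, and the highest level per kilobase of coding transcript, but not per kilobase of merged exons, where Fabp3 was above it in 3 of 4 microglia libraries. Per kilobase of coding transcript, Fabp5 averaged 120 ± 28.9 CPM in lipid-laden MDM, 59.3 ± 12.3 in MDM, 138 ± 23.2 in lipid-laden microglia and 59.2 ± 14.7 in microglia (SD, n = 3, 4, 4 and 4). On the same scale, Fabp3 averaged 15.3 ± 5.11 in lipid-laden MDM, 5.46 ± 2.91 in MDM, 30.1 ± 11.2 in lipid-laden microglia and 19.5 ± 3.15 in microglia. Fabp4 averaged 2.02 ± 1.50 in lipid-laden MDM, 2.17 ± 1.72 in MDM, 2.82 ± 2.91 in lipid-laden microglia and 0.615 ± 0.475 in microglia.

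**Figure D1:**
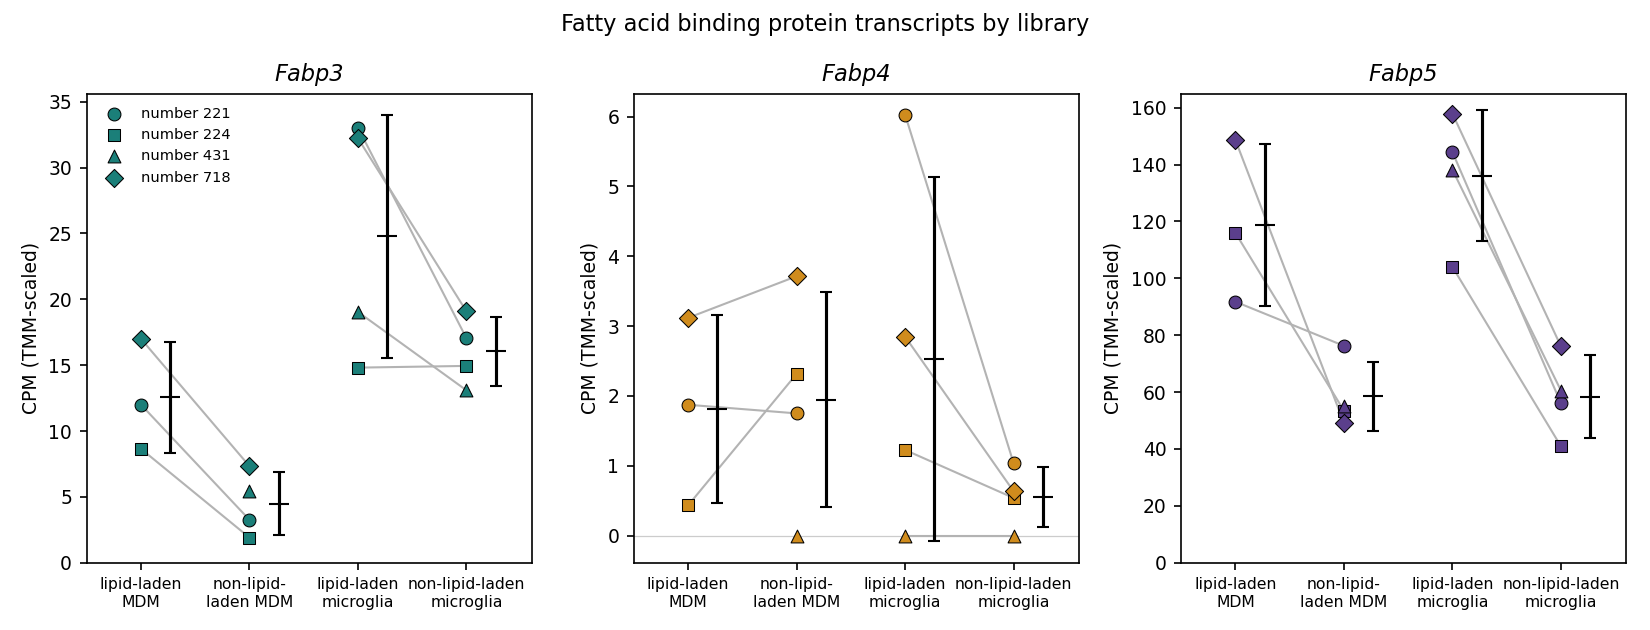
Level of each gene in every library (CPM after TMM scaling, a separate linear axis for each gene), with grey lines joining libraries of the same number and bars for the group mean ± SD. Lipid-laden libraries lie above the non-lipid-laden ones for Fabp5 in both origins, Fabp3 is lowest in non-lipid-laden MDM, and Fabp4 is at 0 in each library numbered 431.

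Fabp5 was higher in every lipid-laden library than in any non-lipid-laden library of the same origin, and its values in MDM and microglia overlapped. In lipid-laden microglia it had 144, 104, 138 and 158 CPM in the libraries numbered 221, 224, 431 and 718, against 56.1, 41.0, 60.6 and 76.1 CPM in microglia of the same numbers. The lowest lipid-laden microglia library lay above the highest microglia library, and the ratio within a number was between 2.07 and 2.57 in 4 of 4 pairs. On the log2 scale the fold change was 1.22 (SE 0.22, 95% interval 0.76 to 1.68). Its edgeR adjusted p was 0.0717, so Fabp5 was not called between the microglia groups, and it ranked number 6 of 14843 genes by p.

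No gene was called in that microglia comparison by edgeR (0% of 14843 genes tested, adjusted p under 0.05), while 1367 had an unadjusted p under 0.05. DESeq2 called 169 genes and limma-voom called 0. Libraries of 1 number deviated together in the microglia groups, and with the number as a block edgeR called 119 genes, Fabp5 among them (log2 fold change 1.23, SE 0.19, adjusted p = 0.0117). The call of the blocked fit did not hold when any of the 4 numbers was left out, with adjusted p between 0.0504 and 0.15 at log2 fold changes of 1.20 to 1.32. Without the block, leaving out the lipid-laden microglia library numbered 224, the lowest of its group, gave an edgeR adjusted p of 0.0176. The 9 pericyte and fibroblast markers summed to 36.9 to 515 CPM in lipid-laden microglia and 1.51 to 66.2 CPM in microglia, all 9 with a positive log2 fold change and none called, and their part in the Fabp5 difference was not tested.

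In lipid-laden MDM, Fabp5 had 91.8, 116 and 149 CPM in the libraries numbered 221, 224 and 718, against 76.3, 53.5, 55.2 and 49.2 CPM in MDM numbered 221, 224, 431 and 718. All 3 lipid-laden libraries lay above all 4 others, and the ratio within a number ranged more widely than in microglia, between 1.20 and 3.02. The log2 fold change was 1.02 (SE 0.23, 95% interval 0.54 to 1.51) with an edgeR adjusted p of 0.0116. Of all genes tested, 8.17% were called in this MDM comparison, 5.21% as higher and 2.96% as lower. Without the lipid-laden MDM library numbered 718, the highest of its group, the log2 fold change was 0.83 and the edgeR adjusted p was 0.0798. The microglia marker levels given above moved with this comparison, and their part in the Fabp5 difference was not tested. Between lipid-laden microglia and microglia, where the Fabp5 log2 fold change was 1.22 and not called, the summed microglia markers overlapped. That comparison holds no MDM library, so it cannot address microglia RNA in MDM.

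Over both origins together, the mean lipid-laden effect on Fabp5 was 1.12 on the log2 scale (SE 0.16, 95% interval 0.79 to 1.46, edgeR adjusted p = 0.000965), and it ranked number 42 of 14843 genes. The share of all genes called in this mean effect was 5.05%, with 3.02% higher. Markers of other cells moved in the same contrast: 2 of 9 pericyte and fibroblast markers were called higher (median log2 fold change 2.65), 4 of 10 microglia markers higher and 7 of 10 dendritic cell markers lower. Summed pericyte and fibroblast markers were 32.3 to 71.0 CPM in lipid-laden MDM and 5.99 to 19.2 CPM in MDM, without overlap, and the part of these cells in the Fabp5 effect was not tested. Fabp5 stayed called in all 26 alternatives, which included leaving out each library in turn. Taken as the effect in MDM minus the effect in microglia, the interaction was -0.20 (95% interval -0.87 to 0.47, edgeR adjusted p = 0.831), and 2.53% of genes were called in that contrast (1.6% higher and 0.93% lower). The interval leaves room for an effect in MDM up to 0.87 smaller or 0.47 larger than in microglia.

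Between the origins Fabp5 was not called at either lipid load. Without lipid load MDM averaged 58.5 ± 12.1 CPM and microglia 58.4 ± 14.5 CPM (SD, n = 4 each), with a log2 fold change of 0.00 (95% interval -0.45 to 0.46, edgeR adjusted p = 0.997), where 23.2% of genes were called. Within a number, MDM were higher in 2 pairs and lower in 2, with ratios between 0.646 and 1.36. Lipid-laden MDM averaged 119 ± 28.5 CPM and lipid-laden microglia 136 ± 22.9 CPM (SD, n = 3 and 4), with a log2 fold change of -0.20 (95% interval -0.69 to 0.29, edgeR adjusted p = 0.784), where 2.78% of genes were called (2.2% higher and 0.579% lower). In descending order the group means ran lipid-laden microglia, lipid-laden MDM, MDM and microglia. The first pair of neighbours and the last pair did not differ beyond their spread, and the groups on either side of the middle step did not overlap.

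**Figure D2:**
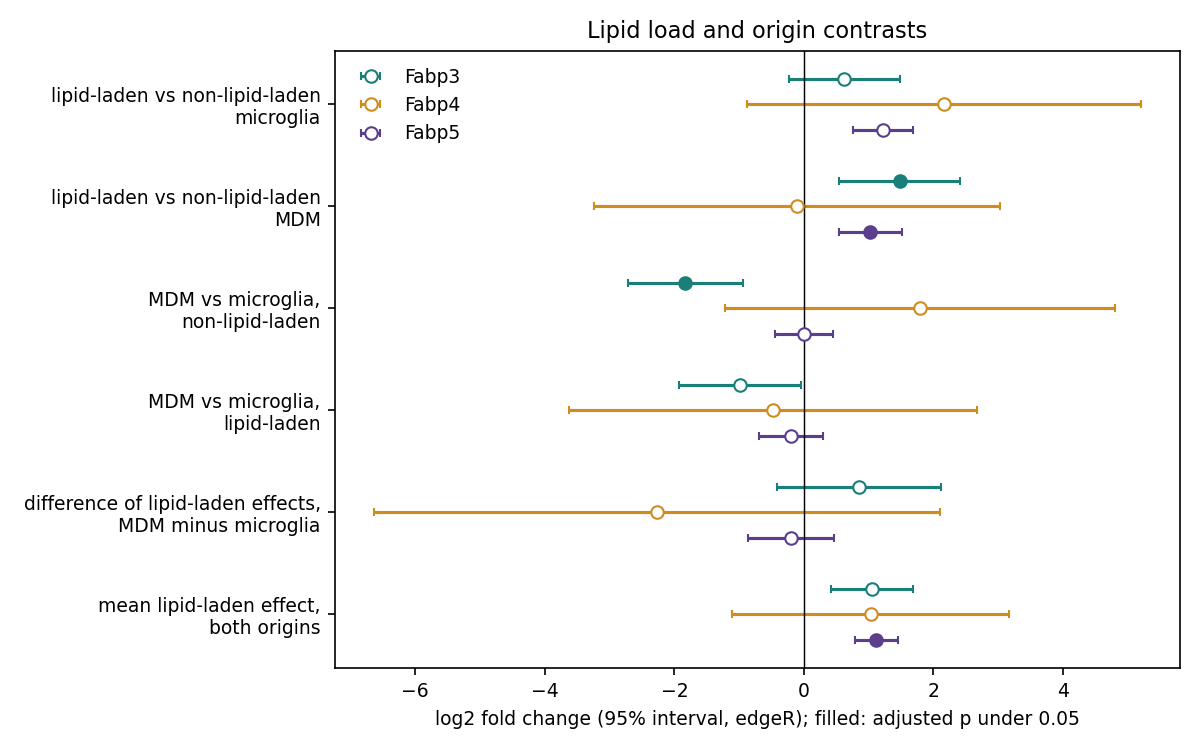
Log2 fold change with its 95% interval (edgeR) for Fabp3, Fabp4 and Fabp5 in 6 contrasts, with filled points where the adjusted p was under 0.05. Fabp5 is filled for MDM lipid load and for the mean effect, Fabp3 for MDM lipid load and for origin without lipid load, and every Fabp4 interval crosses 0.

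Fabp3 was lowest in non-lipid-laden MDM. Non-lipid-laden MDM had 3.27, 1.91, 5.46 and 7.34 CPM in the libraries numbered 221, 224, 431 and 718, against 17.1, 14.9, 13.1 and 19.1 CPM in microglia of the same numbers. Every MDM library lay below every microglia library, and the ratio within a number was between 0.128 and 0.417. The log2 fold change was -1.83 (SE 0.42, 95% interval -2.72 to -0.94, edgeR adjusted p = 0.00497), and it was called in all 20 alternatives, at -2.19 to -1.58. Of all genes tested, 12.5% were called lower in MDM in this contrast. The microglia markers moved the same way between these groups, by the labelled origin.

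With lipid load Fabp3 was not called between the origins. Lipid-laden MDM had 12.01, 8.65 and 17.01 CPM in the libraries numbered 221, 224 and 718, against 33.0, 14.8, 19.0 and 32.2 CPM in lipid-laden microglia numbered 221, 224, 431 and 718. Lipid-laden MDM were lower in 3 of 3 pairs, at ratios between 0.363 and 0.584, but the groups overlapped. This gave a log2 fold change of -0.98 (SE 0.44, 95% interval -1.92 to -0.04), which edgeR did not call (adjusted p = 0.316).

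Against MDM, lipid-laden MDM had more Fabp3 RNA in 3 of 3 pairs, by ratios of 2.32 to 4.52, and the groups did not overlap. The log2 fold change was 1.48 (SE 0.44, 95% interval 0.55 to 2.41) with an edgeR adjusted p of 0.0491, just under the threshold of 0.05. The call was kept in 4 of 19 alternatives, and leaving out any single library of the 2 groups other than the MDM library numbered 718 ended it, with adjusted p between 0.0575 and 0.206 at log2 fold changes of 1.19 to 1.69. Summed microglia markers, in whose labelled cells Fabp3 was higher, were also higher in lipid-laden MDM (9 of 10 markers called), and their part in the Fabp3 difference was not tested. Of the 10 dendritic cell markers, 7 were called lower in the same contrast. Over all genes 5.21% were called higher and 2.96% lower there.

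Lipid-laden microglia averaged 24.8 ± 9.24 CPM of Fabp3 and microglia 16.0 ± 2.60 CPM (SD, n = 4 each). The pairs numbered 221, 431 and 718 were higher with lipid load, at ratios of 1.94, 1.45 and 1.69, and the pair numbered 224 was level at 0.991. The log2 fold change of 0.63 (SE 0.40, 95% interval -0.23 to 1.48) was not called by edgeR (adjusted p = 0.69). The mean lipid-laden effect over both origins was 1.05 (SE 0.30, 95% interval 0.42 to 1.68, edgeR adjusted p = 0.0534), and the effect did not differ detectably between the origins (0.85, 95% interval -0.41 to 2.11, edgeR adjusted p = 0.517). With the number as a block the mean effect had an edgeR adjusted p of 0.0242, a call lost when number 221, 224 or 718 was left out of the blocked fit (adjusted p of 0.121, 0.0887 and 0.182). By mean level the order was lipid-laden microglia, microglia, lipid-laden MDM and MDM. Each group overlapped its neighbour in that order except MDM, which lay below all the others.

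Fabp4 was scarce in all groups. It summed to 252 counts over the 15 libraries, against 12941 counts for Fabp5 and 2070 for Fabp3, and was found in 12 libraries. Lipid-laden MDM had 17, 4 and 33 counts in the libraries numbered 221, 224 and 718, which is 1.87, 0.433 and 3.12 CPM. MDM had 15, 23, 0 and 41 counts in the libraries numbered 221, 224, 431 and 718, which is 1.75, 2.32, 0 and 3.71 CPM. The 2 MDM groups overlapped, and the highest value of each came from number 718.

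Lipid-laden microglia had 60, 11, 0 and 28 Fabp4 counts in the libraries numbered 221, 224, 431 and 718, which is 6.03, 1.23, 0 and 2.85 CPM. Microglia had 10, 5, 0 and 5 counts, which is 1.03, 0.538, 0 and 0.632 CPM. Lipid-laden microglia were higher in the 3 pairs with a count, at ratios of 2.28 to 5.83, and the groups overlapped through the pair at 0. A count of 0 allows up to 3 counts, which is 0.309 to 0.390 CPM in the libraries numbered 431 and covers counting error only.

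None of the 6 Fabp4 contrasts was called by edgeR, with adjusted p between 0.405 and 0.986, and none in any alternative that gave a value. The intervals were wide. Lipid load gave a log2 fold change of 2.17 (95% interval -0.88 to 5.21) in microglia and -0.11 (95% interval -3.24 to 3.02) in MDM. For origin it was 1.80 (95% interval -1.22 to 4.81) without lipid load and -0.48 (95% interval -3.63 to 2.67) with it. The mean lipid-laden effect was 1.03 (95% interval -1.11 to 3.17) and the difference of the effect between origins was -2.27 (95% interval -6.64 to 2.10). In microglia the SE was 1.43, against 1.03 with the number as a block and 0.98 without the libraries numbered 431, and the contrast was called in neither of those fits (edgeR adjusted p of 0.492 and 0.665).

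Fabp4 values also went with the library number. The 3 libraries numbered 431 had 0 of 24982093 counts, whereas the 4 libraries of each other number summed to 102 counts (221), 43 counts (224) and 107 counts (718) at 37681545 to 39582002 total counts. Fabp4 is also made by adipocytes and by capillary endothelium. Adiponectin and the other 6 adipocyte markers summed to at most 2.53 CPM in any library. The 14 endothelial markers summed to 48.8 to 160 CPM in lipid-laden MDM and 49.2 to 211 CPM in MDM, and to 28.5 to 396 CPM in lipid-laden microglia and 37.3 to 178 CPM in microglia. None of the 11 that were tested was called in any of the 6 contrasts, where 0% to 23.2% of all genes were called. Their median log2 fold change with lipid load was 0.58 in microglia (9 of 11 positive) and -0.33 in MDM (3 of 11 positive). For MDM against microglia it was 0.07 without lipid load (6 of 11 positive) and -2.09 with it (3 of 11 positive). The lipid-laden microglia library numbered 221 had both the highest Fabp4 value and the highest endothelial sum (396 CPM). The libraries numbered 431 had endothelial sums of 49.2 to 80.9 CPM with no Fabp4 count. The part of endothelial RNA in the Fabp4 values was not tested.

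The 3 genes were also added up per kilobase of coding transcript, as the summed carrier RNA of a library. The sum was 110, 128 and 175 CPM per kilobase in lipid-laden MDM numbered 221, 224 and 718, against 83.2, 59.1, 62.5 and 62.9 in MDM numbered 221, 224, 431 and 718. It was 193, 125, 163 and 202 in lipid-laden microglia and 78.7, 60.3, 77.3 and 101 in microglia, numbered 221, 224, 431 and 718. In both origins the lipid-laden libraries lay above all the others, and on this scale Fabp5 was the largest part of each sum.

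The share of Fabp5 in the sum depended on the length used. The length planned for this comparison was that of the merged exons, which for Fabp4 and Fabp5 hold a retained-intron transcript, and the coding transcript was added after seeing the data. Over merged exons Fabp5 made up 68.2% ± 6.38 of the sum in lipid-laden MDM, 73.9% ± 12.1 in MDM, 56.5% ± 6.51 in lipid-laden microglia and 45.2% ± 5.68 in microglia (SD, n = 3, 4, 4 and 4). On that scale Fabp3 was the larger part in microglia, at 54.4% ± 5.49 on average and above Fabp5 in the microglia libraries numbered 221, 224 and 718. The Fabp5 share was 28.7 percentage points higher in MDM than in microglia without lipid load (two-sided exact permutation test, p = 0.0286, Benjamini-Hochberg adjusted over 4 comparisons 0.0762). It was 11.7 points higher in lipid-laden MDM than in lipid-laden microglia (exact permutation p = 0.0571, adjusted 0.0762) and 11.3 points higher in lipid-laden microglia than in microglia (exact permutation p = 0.0571, adjusted 0.0762). Lipid-laden MDM and MDM differed by -5.71 points (exact permutation p = 0.457, adjusted 0.457). With 3 against 4 libraries the exact test cannot go below 0.0571, and with 4 against 4 it cannot go below 0.0286.

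Over the coding transcript Fabp5 made up 87.5% ± 3.51 of the sum in lipid-laden MDM, 88.3% ± 6.21 in MDM, 81.3% ± 4.70 in lipid-laden microglia and 74.2% ± 4.62 in microglia (SD, n = 3, 4, 4 and 4). The 4 differences kept their sign and were smaller. MDM were 14.1 points above microglia without lipid load (exact permutation p = 0.0571, adjusted 0.19) and lipid-laden MDM were 6.19 points above lipid-laden microglia (exact permutation p = 0.114, adjusted 0.19). Lipid-laden microglia were 7.07 points above microglia (exact permutation p = 0.143, adjusted 0.19), and lipid-laden MDM and MDM differed by -0.83 points (exact permutation p = 0.857, adjusted 0.857). No adjusted p was under 0.05 at either length. With these numbers of libraries and 4 comparisons the adjusted p of this exact test cannot fall under 0.05. The absence of a call therefore does not show that the shares were equal.

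**Figure D3:**
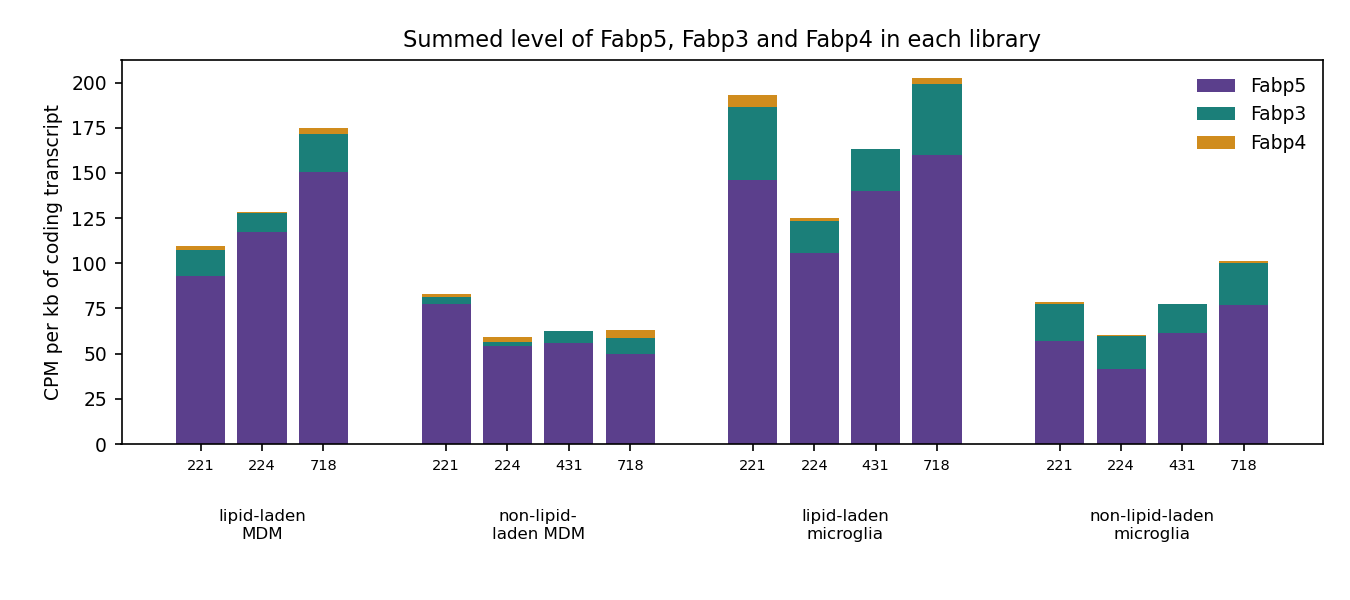
Summed level of Fabp5, Fabp3 and Fabp4 in each library (CPM per kilobase of coding transcript, stacked bars, library number under each bar). Fabp5 is the largest part of every bar, Fabp3 is a larger part in microglia than in MDM, and the lipid-laden bars are the tallest within each origin.

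The other members of the intracellular lipid-binding family reported here were scarce, apart from Fabp7. Of 11 further genes, 2 passed the filter: Fabp7, the brain-type carrier of radial glia and astrocytes, and Crabp2, a retinoic acid carrier. Fabp9, Pmp2 and Rbp2 had 0 counts in all 15 libraries. Fabp1, Fabp2, Fabp6, Fabp12 and Rbp7 had between 1 and 7 counts in all, and Crabp1 had 24 counts in a single library. Of the 5 genes in the chromosome 3 cluster, Fabp5 and Fabp4 were therefore the only ones with more than 6 counts.

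Fabp7 averaged 31.2 ± 13.1 CPM in lipid-laden MDM, 9.19 ± 4.25 CPM in MDM, 54.5 ± 19.2 CPM in lipid-laden microglia and 63.5 ± 23.1 CPM in microglia (SD, n = 3, 4, 4 and 4). Like Fabp3, it was lower in MDM than in microglia without lipid load (log2 fold change -2.78, SE 0.43, edgeR adjusted p = 0.00024) and higher in lipid-laden MDM than in MDM (1.76, SE 0.44, edgeR adjusted p = 0.0216). The second call held in 12 of 19 alternatives and was lost without the MDM library numbered 718 or the lipid-laden MDM library numbered 221 or 718. Between lipid-laden microglia and microglia Fabp7 was not called (-0.22, 95% interval -1.06 to 0.62, edgeR adjusted p = 0.946). Markers of glioma and progenitor cells, which express Fabp7, summed to 86.5 to 175 CPM in lipid-laden MDM and 25.7 to 37.9 CPM in MDM, and to 223 to 537 CPM in lipid-laden microglia and 157 to 489 CPM in microglia. Of the 12 markers, which include Fabp7 itself, 11 were called lower in MDM than in microglia without lipid load (12.5% of all genes). In lipid-laden MDM against MDM 5 were called higher (5.21% of all genes). The part of glioma and progenitor cells in the Fabp7 levels was not tested. Crabp2 was called in no contrast by edgeR.

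Among genes that bring fatty acids to the carriers the clearest call was Lpl, the lipase that frees fatty acids from lipoprotein triglyceride. Of 13 tested genes of entry and activation, 2 were called higher and 0 lower in lipid-laden MDM than in MDM. Over all genes 5.21% were called higher and 2.96% lower there. The median log2 fold change of the 13 was 0.28 against 0.04 over all genes. Lpl averaged 150 ± 39.4 CPM in lipid-laden MDM and 26.95 ± 10.5 CPM in MDM, with log2 fold change 2.48 (SE 0.27, edgeR adjusted p = 7.91e-05). The other was Acsl6, an acyl-CoA synthetase, with 76 counts in lipid-laden MDM and 0 in MDM, at least 32.6-fold higher if MDM is set to 3 counts over the group. The mean lipid-laden effect over both origins was 1.66 for Lpl (SE 0.18, edgeR adjusted p = 0.000234), beside 1.12 for Fabp5 and 1.05 for Fabp3. Lpl and Fabp3 were both lower in MDM than in microglia without lipid load, with log2 fold changes of -3.26 for Lpl (SE 0.27, edgeR adjusted p = 9.02e-07) and -1.83 for Fabp3, whereas that of Fabp5 was 0.00. Acsl6 had 131 counts in microglia against 0 in MDM. Of the 10 microglia markers, 9 were called higher in lipid-laden MDM than in MDM. The part of microglia RNA in the Lpl and Acsl6 differences was not tested.

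Of 9 tested genes of fatty acid release and droplet coating, 2 were called higher and 0 lower in lipid-laden MDM than in MDM. These were Lipa, the lysosomal acid lipase, and Plin2, a lipid droplet coat protein. The Lipa call held in 17 of 19 alternatives and the Plin2 call in 12 of 19. Leaving out 1 library ended the Plin2 call in 5 of 7 fits. Over all genes 5.21% were called higher and 2.96% lower there. Over both origins 3 were higher (Lipa, Plin2 and Plin3) and 1 was lower (Lipe, the hormone-sensitive lipase), against 3.02% and 2.02% of all genes. The mean effect was 0.76 for Lipa (SE 0.14, edgeR adjusted p = 0.00662) and -0.97 for Lipe (SE 0.26, edgeR adjusted p = 0.0439). The Lipe call held in 6 of 26 alternatives. Between lipid-laden microglia and microglia, where no gene at all was called, the 9 had a median log2 fold change of 0.53 against -0.02 over all genes.

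Carriers can supply nuclear receptors. Of 12 tested receptors and partners, 1 was called between lipid-laden MDM and MDM, a share near the 8.17% of all genes. It was Rxra, the shared partner of PPARs (49.2 ± 14.5 CPM in lipid-laden MDM and 17.9 ± 5.57 CPM in MDM, SD, n = 3 and 4, log2 fold change 1.46, edgeR adjusted p = 0.00536). Without lipid load Rxra was lower in MDM than in microglia (-1.24, SE 0.27, edgeR adjusted p = 0.00392). The microglia markers moved the same way in both contrasts, and their part in the Rxra difference was not tested. Pparg, which drives Fabp4 in adipocytes, averaged 3.06 ± 2.75 CPM in lipid-laden MDM, 10.2 ± 8.26 CPM in MDM, 0.888 ± 0.634 CPM in lipid-laden microglia and 0.713 ± 0.838 CPM in microglia (SD, n = 3, 4, 4 and 4). It was called higher in MDM than in microglia without lipid load (log2 fold change 3.79, SE 1.31, edgeR adjusted p = 0.0469), a call held in 8 of 20 alternatives and lost without any single library of the 2 groups other than the MDM library numbered 221. Of 17 tested PPAR target genes, 1 was called higher (Plin2) and 1 lower (Slc25a20, the mitochondrial carnitine-acylcarnitine carrier) in lipid-laden MDM than in MDM. The Plin2 call held in 12 of 19 alternatives. In MDM against microglia without lipid load 5 were higher and 0 lower, where 10.7% of all genes were called higher and 12.5% lower. Fabp4 itself stood at 1.94 ± 1.54 CPM in MDM against 0.551 ± 0.426 CPM in microglia without lipid load (SD, n = 4 each), and the difference was not called.

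Enzymes that turn fatty acids into prostanoids and leukotrienes are another partner of these carriers, and the list used here also holds phospholipase A2 genes. Of 17 tested, 7 were called higher and 1 lower in lipid-laden MDM than in MDM, among them Hpgds, a prostaglandin D synthase (515 ± 28.7 CPM in lipid-laden MDM and 199 ± 34.4 CPM in MDM), and Ptgs1, a cyclooxygenase (599 ± 78.4 CPM in lipid-laden MDM and 236 ± 54.4 CPM in MDM). The lower one was Lta4h, the leukotriene A4 hydrolase, at 135 ± 23.6 CPM in lipid-laden MDM and 332 ± 38.5 CPM in MDM (SD, n = 3 and 4). The shares over all genes were 5.21% higher and 2.96% lower. The microglia markers moved with this list, 9 of 10 called higher in lipid-laden MDM than in MDM. In MDM against microglia without lipid load 6 of the 17 enzymes were called lower and 4 higher (12.5% and 10.7% of all genes). By that contrast of origin the log2 fold change was -1.51 for Hpgds, -1.34 for Ptgs1 and 1.77 for Lta4h, and the part of microglia RNA in the list's changes was not tested. No gene of the 14843 tested was called between lipid-laden microglia and microglia, these 17 and Fabp5 included. There the median log2 fold change of the 17 was 0.13, and that of Fabp5 was 1.22. Of 15 lipid-associated macrophage markers, 10 were called higher and 1 lower in lipid-laden MDM than in MDM, with a median log2 fold change of 1.13 beside 1.02 for Fabp5, and again 5.21% of all genes were higher and 2.96% lower. Of these 15, 9 were called lower and 1 higher in MDM than in microglia without lipid load (12.5% and 10.7% of all genes). This list too moved with the microglia markers, whose part was not tested. Between lipid-laden microglia and microglia, where no gene at all was called, these markers had a median of 0.14 beside 1.22 for Fabp5. Log2 fold changes of lipid-laden microglia against microglia were positive for all 14 hypoxia response genes, with a median of 0.74 and no gene called, whereas in lipid-laden MDM against MDM 1 was called higher and 2 lower.

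The genes whose level most resembled that of each carrier were looked up over the 15 libraries, among 8557 tested genes with a mean log2 CPM of at least 3. Libraries share groups and numbers, so these correlations are a description. For Fabp5 the 5 highest Pearson correlations of log2 CPM were with Acvrl1 (0.946), a receptor of the TGF beta family, Pgd (0.911), an enzyme of the pentose phosphate pathway, Akr1a1 (0.854), Ap2s1 (0.850) and Slc48a1 (0.846), a heme transporter. After taking out the group means, the correlation was 0.78 with Acvrl1, 0.656 with Pgd, 0.612 with Slc48a1, 0.442 with Akr1a1 and 0.363 with Ap2s1. For Fabp3 they were with Rnf128 (0.958), Pfkl (0.956), the liver-type phosphofructokinase, Pmp22 (0.946), Slc40a1 (0.946), the iron exporter ferroportin, and Csf1 (0.942), a macrophage growth factor. After taking out the group means these were 0.885 for Pfkl and 0.756 to 0.78 for the other 4. For Fabp4 they were Stard3nl, Prnp, Ccs, Osbpl9 and Dynlt1-ps1, between 0.824 and 0.861, at Fabp4 counts of 0 to 60 a library. Among the carriers themselves the correlation over the 15 libraries was 0.541 between Fabp3 and Fabp5, 0.247 between Fabp4 and Fabp5 and 0.0685 between Fabp3 and Fabp4, and after taking out the group means it was 0.237, 0.0776 and 0.31 for the same pairs.

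**Figure D4:**
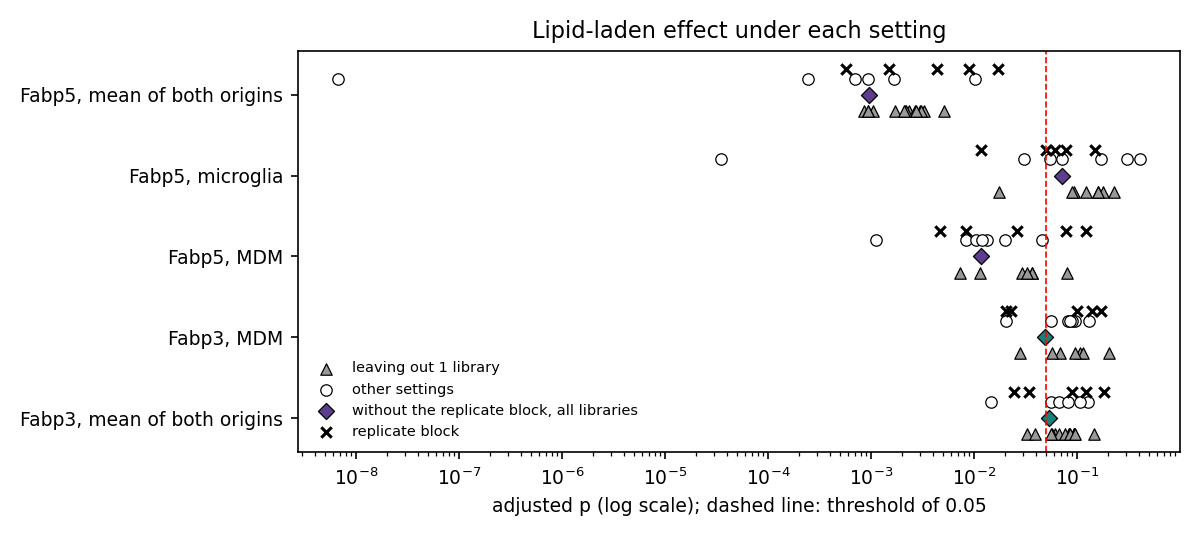
Adjusted p of the lipid-laden effect on Fabp5 and Fabp3 under each way of processing (log axis, dashed line at 0.05, 1 point for each alternative). For the mean effect on Fabp5 every point lies left of the line. The points of Fabp5 in microglia, Fabp5 in MDM, Fabp3 in MDM and the mean effect on Fabp3 fall on both sides.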

How the data were processed

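RNA of sorted cells was reverse transcribed from an oligo-dT primer and sequenced, per the labels' protocols. The authors deposited whole-number read counts per gene for 15 libraries, and the submitters' processing notes name mm10. No aligner, counter or strand setting is named in the sources used here. Libraries held 7798952 to 11419338 counts, and no 2 libraries of a group agreed within sampling noise (lowest chi-square per degree of freedom 17.3). Groups came from the sample titles.

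From the deposited counts, 14843 of 55486 genes passed filterByExpr (minimum count 10, minimum total 15). edgeR 4.0.16 quasi-likelihood tests with TMM scaling were fitted to all libraries, with 1 coefficient a group and no covariate, and adjusted by Benjamini-Hochberg over all genes tested (threshold 0.05). SEs were derived from the F statistic. CPM are TMM-scaled. Levels per kilobase used the merged exons, as planned for the shares, and the protein-coding transcript of the GENCODE annotation (823 bases for Fabp3, 896 for Fabp4, 987 for Fabp5), which also gave the coding sequences, aligned with MAFFT 7.526. Shares were tested by exact permutation (SciPy 1.17.1).

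The numbers were taken to pair the lipid-laden microglia and microglia libraries, since same-numbered libraries deviated together in 4 of 4 pairs (r of 0.124 to 0.256, against -0.20 to 0.0941 for other pairs), and lipid-laden MDM with lipid-laden microglia (0.107 to 0.168). The other pairs of groups did not all pass 0.1 (0.0272 to 0.123 for lipid-laden MDM with MDM, 0.0152 to 0.15 for MDM with microglia). Ddx3y and Xist went with the number in every group. The labels do not say what the number stands for.

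Alternatives were DESeq2 1.42.0, limma-voom (limma 3.58.1), RLE size factors in edgeR, no filter, only the groups compared, the number as a block, and leaving out each library. Leaving out all libraries of a number, both lipid-laden libraries numbered 221, and the coding length for shares were added after seeing the data. The members and gene lists were chosen with earlier results of these data known. Other family genes are named in full except 1 that is not reported here, and of each further list at most 4 called genes with the smallest p a contrast are named, with marker lists given as counts and sums. The edgeR, limma-voom and DESeq2 fits, with and without the number as a block, were tested on simulated counts first. Those counts held 4-fold changes in lipid-laden microglia and no effect of the number. The other alternatives were not tested in this way.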

Additional observations from a re-analysis of the deposited data

Results flagged for a closer look

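For Fabp3, Fabp4 and Fabp5, no library stood far from the others of its group in the 21 groups of 4 that were checked. Lipid-laden MDM, with 3 libraries, lay outside that check. The following genes of the lists above had a lipid-laden effect that differed between MDM and microglia (edgeR interaction, adjusted p under 0.05), given as the effect in MDM minus the effect in microglia on the log2 scale. Among lipid genes the difference was 1.64 for Lpl, -1.91 for Hilpda, a lipid droplet protein that inhibits lipolysis, and -1.59 for Slc25a20. Acsl6 had a fitted difference of 8.56, which depends on the prior count because non-lipid-laden MDM had 0 counts. Among hypoxia response genes it was -3.85 for Ndrg1, -2.27 for Ankrd37, -0.84 for Ldha and -1.70 for Vegfa. In the list of prostanoid and leukotriene enzymes it was 1.61 for Hpgds, -1.56 for Lta4h, 1.47 for Ptgs1 and 1.37 for Pla2g15, a phospholipase A2. Among lipid-associated macrophage markers it was 1.29 for Cd63, 1.15 for Ctsl, 0.92 for Ctsb and 1.32 for Trem2. In the same contrast 7 of 10 microglia markers were called higher (median 1.95) and 3 of 10 MDM markers lower (median -1.38), and their part in these differences was not tested. The calls of Vegfa and Ldha held in 5 and 13 of 26 alternatives, and each call of the other genes held in at least 19. The share of all genes called in this contrast was 2.53%, and none of Fabp3, Fabp4 and Fabp5 was among them.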

How the results depend on the processing

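Of the Fabp5 results, the mean lipid-laden effect kept its direction and its call under all 26 alternatives (1.03 to 1.27). In microglia the Fabp5 effect stayed between 1.10 and 1.39 and was called with DESeq2 (1.24), with no filter on low counts (1.22) and with the replicate block (1.23), and over the leave-one-out fits, 1.10 to 1.39, it was called in 1 of 8. In MDM it was not called in the blocked fit without number 224 (0.92) or 718 (0.81), and leaving out 1 library gave 0.83 to 1.18. Its origin contrasts lay near 0 and changed sign when numbers were left out of the blocked fit: with lipid load 0.040 without 221, and without lipid load -0.11 without 221 and -0.061 without 224 (leave-one-out -0.15 to 0.17). The difference of effects was 0.15 in the blocked fit without 221. The cause of these changes was not tested.

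Fabp3 in MDM was not called with RLE size factors (1.44), limma-voom (1.60), no filter (1.47), only the groups compared (1.48), the blocked fit without 221 (1.42), 224 (1.31) or 718 (1.64), without both lipid-laden libraries numbered 221 (1.51), without all libraries numbered 431 (1.59), or in 6 of 7 leave-one-out fits (1.19 to 1.83). Its mean effect was called with DESeq2 (1.05), the replicate block (1.03), the blocked fit without 431 (1.13) and 2 leave-one-out fits, those without MDM 718 (1.23) and lipid-laden microglia 224 (1.16), and the leave-one-out fits gave 0.91 to 1.23. Fabp4 changed sign between lipid-laden MDM and lipid-laden microglia with limma-voom (0.49) and without both lipid-laden libraries numbered 221 (0.39, leave-one-out -1.13 to 0.41), and between lipid-laden MDM and MDM with limma-voom (0.42, leave-one-out -0.76 to 0.41). With only the groups compared Fabp4 was filtered out of some fits and gave no value. Crabp2 in microglia, at 0.00, was -0.00174 with no filter, -0.13 with the replicate block, -0.95 and -0.20 in the blocked fit without 221 or 718, -0.55 without both lipid-laden libraries numbered 221, and -0.57 to 0.39 leaving out 1 library (-0.304 and -0.19 without microglia 221 or 718, -0.57 without lipid-laden microglia 221). Fabp7 in microglia ran from -0.42 to 0.00041 leaving out 1 library, the highest without microglia 221.

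Counts of genes called moved by more than 1.5 times as follows. For lipid load in microglia, 0 became 169 with DESeq2, 17 with no filter, 119 with the replicate block, 17, 68 and 13 in the blocked fit without 221, 224 or 431, 1 without all 431 libraries, and 0 to 64 leaving out 1 library. For lipid load in MDM, 1213 became 1955 with DESeq2, 761 and 456 in the blocked fit without 224 or 718, and 657 to 1052 leaving out 1 library. For origin without lipid load, 3442 became 2252 in the blocked fit without 718. For origin with lipid load, 413 became 798 with DESeq2, 176 with only the groups compared, 217 and 148 in the blocked fit without 224 or 718, 261 without all 431 libraries, and 168 to 378 leaving out 1 library. For the difference of effects, 375 became 964 with DESeq2, 657 with the replicate block, 58 in the blocked fit without 718, 232 without all 431 libraries, and 186 to 452 leaving out 1 library. For the mean effect, 749 became 1423 with DESeq2, 1175 with the replicate block, 289 in the blocked fit without 718, 433 without all 431 libraries, and 384 to 744 leaving out 1 library. Between lipid-laden MDM and MDM and between MDM and microglia the deviations did not show that the numbers pair the libraries. The blocked values of these contrasts therefore stand here only (Fabp3 in MDM with the replicate block 1.51 and called, Fabp3 by origin -1.94 and called). The blocked mean effect of Fabp3 given above includes the MDM groups. Of the remaining results, 486 values of the comparisons kept their direction and side of the threshold. Fabp4 rests on 0 to 60 counts a library, and the part of depth in its SE was not tested.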
